A study of Mus musculus with 19 samples.

Results

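The transcriptome of the mouse lens was compared between embryonic days E10.5 and E11.5, on 3 Affymetrix arrays of lens at E10.5 and 3 at E11.5, chosen by their stage label from 19 arrays in all. All embryos were wild type ICR mice, staged from the day of the vaginal plug, with no treatment or allele in either group. Lens was dissected by hand in PBS and kept in RNAlater before column extraction, and the cRNA was biotin-labelled. The other 13 arrays were 3 of E12.5 lens, 4 of whole body matched to the lens stages, 3 of E13.5 tooth germ and 3 of whole body matched to the tooth series, and they entered the model to estimate the spread between arrays. The labels do not say whether the 3 arrays of a stage came from separate litters or pools, nor whether the ectoderm over the lens was removed, so p-values measure only the spread between these arrays, and their number limits the precision.

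The lens forms from the head surface ectoderm, an epithelium that thickens against the optic vesicle into a placode, bends inward as the lens pit and closes into a vesicle that detaches from the ectoderm above it. The ectoderm left outside becomes the corneal epithelium, mesenchyme of mostly neural crest origin moves into the space between, and posterior vesicle cells leave the cell cycle and elongate into primary fibres rich in crystallins. In the mouse E10.5 falls in the pit stage and E11.5 in the vesicle stage. The comparison asks which genes of the early lens changed level as the pit closed.

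Levels are log2 of the deposited signal, a difference is the E11.5 minus the E10.5 mean, and its standard error (SE) and adjusted p come from limma over all 13320 genes tested. A gene is said to have risen or fallen when its adjusted p was under 0.05. The median of all values was 5.46, and a level below it was not told apart from background here. Where all 3 arrays of a stage lay below it, the change is given as at least the fold between 5.46 and the mean of the other stage, with the adjusted p of the fit. Among the called genes named here, Tgm2, Krt7, Cldn7, Cldn6, Spint1 and Ptprc at E11.5 and Fst at E10.5 lay below it on 2 arrays, and Cnr1 at E11.5 and Bgn and Trim10 at E10.5 on 1, so their differences are less certain in size. Genes are named with their position in assembly GRCm38.p6 where they carry a main result.

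Both groups held an array that stood apart. Over all probe sets, E10.5 replicates 1 and 2 correlated with each other at r = 0.9902, whereas E10.5 replicate 3 correlated with them at 0.9853 and 0.9846 and with E11.5 replicates 2 and 3 at 0.9902 and 0.9921. E11.5 replicate 1 correlated with the other E11.5 arrays at 0.9645 and 0.9706 and with E10.5 replicate 1 at 0.9787, and its median over the tested genes was 7.34, against 7.54 to 7.68 on the other 5 arrays. The bacterial control probe sets, which report control RNA added at hybridisation, divided the arrays in the same way. Their mean log2 signal was at least 11.1432 on a high set that held E10.5 replicates 1 and 2 and E11.5 replicate 1, and at most 10.3021 on a low set that held E10.5 replicate 3 and E11.5 replicates 2 and 3. Each set held both stages, so the comparison was also made within each, and with each array left out in turn. In each set 1 stage rests on a lone array, whose spread was taken from the remaining groups.

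From E10.5 to E11.5, 203 genes rose (1.52% of those tested) and 365 fell (2.74%), of which 74 and 133 changed at least 2-fold. The 3 E11.5 arrays lay above all E10.5 arrays in 957 genes (7.18%) and below all of them in 1369 (10.3%). Without E10.5 replicate 3, 342 genes rose (2.57%) and 408 fell (3.06%), and 183 of the 203 rises and 319 of the 365 falls were called again. In the 6 arrays alone, with fewer arrays to estimate the spread, 9 genes rose (0.0676%) and 47 fell (0.353%). Over all tested genes the median difference was -0.0039.

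Genes of a simple surface epithelium were prominent among the falls. Epcam (chr17:87635979-87651127), which encodes an adhesion molecule of epithelial cells, measured 10.25, 10.21 and 9.92 on E10.5 replicates 1 to 3 and 6.93, 7.24 and 7.20 on E11.5 replicates 1 to 3. The groups lay far apart, and no array of either stage came near the other stage. Epcam fell by 3.0 on the log2 scale (SE 0.16, 8.01-fold, adjusted p = 1.1e-09), and by 3.10 without E10.5 replicate 3. A further probe set of Epcam stood at a mean of 6.78 at E10.5 and 6.86 at E11.5 and did not follow it. Dsp (chr13:38151294-38198577), desmoplakin, which ties intermediate filaments to desmosomes, was at 9.87, 10.41 and 9.38 at E10.5 and at 6.09, 6.29 and 6.20 at E11.5, a 12.9-fold fall (log2 difference -3.69, SE 0.23, adjusted p = 8.4e-09). Krt8 (chr15:101996711-102004342), a keratin of simple epithelia, was at 10.25, 10.56 and 9.71 at E10.5 and at 6.64, 7.34 and 6.83 at E11.5, a 9.40-fold fall (log2 difference -3.23, SE 0.22, adjusted p = 3e-08). In all 3 genes the lowest E10.5 array was replicate 3, and it still lay more than 2 log2 units above every E11.5 array.

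The promoters of these 3 genes are shown because the genes fell together and carry the epithelial result. Each is the 250 bases before the RefSeq transcription start in GRCm38.p6, written 5′ to 3′ on the gene's strand in lower case, with matches to the searched motifs in capitals. The intervals are chr17:87635729-87635978 (plus strand) for Epcam, chr15:102004343-102004592 (minus strand) for Krt8 and chr13:38151044-38151293 (plus strand) for Dsp.
Epcam: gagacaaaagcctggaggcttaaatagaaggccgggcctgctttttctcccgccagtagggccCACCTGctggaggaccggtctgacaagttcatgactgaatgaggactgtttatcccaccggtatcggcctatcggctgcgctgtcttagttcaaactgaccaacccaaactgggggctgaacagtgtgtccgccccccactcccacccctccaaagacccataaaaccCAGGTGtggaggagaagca
Krt8: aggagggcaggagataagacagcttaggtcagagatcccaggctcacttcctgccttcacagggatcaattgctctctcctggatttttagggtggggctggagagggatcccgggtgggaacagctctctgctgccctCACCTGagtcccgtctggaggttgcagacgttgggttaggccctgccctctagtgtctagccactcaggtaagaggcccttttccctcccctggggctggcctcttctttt
Dsp: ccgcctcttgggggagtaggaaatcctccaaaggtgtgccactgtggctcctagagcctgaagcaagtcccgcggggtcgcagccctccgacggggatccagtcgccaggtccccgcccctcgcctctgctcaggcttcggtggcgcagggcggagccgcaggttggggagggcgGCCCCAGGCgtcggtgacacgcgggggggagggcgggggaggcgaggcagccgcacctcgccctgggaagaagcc
The motifs searched on both strands were CACCTG, an E-box that Zeb and Snail factors can bind, GCCNNNGGC, an AP-2 motif, and AACCGGTT, a motif of grainyhead-like factors. Epcam held 2 E-boxes, at 187 to 182 bases before the start and, on the opposite strand, where it reads CAGGTG, at 19 to 14 bases. Krt8 held 1 E-box at 111 to 106 bases, and Dsp held 1 AP-2 match at 75 to 67 bases. No matches overlapped in these 3 promoters. Of the 15 genes with the largest falls 6 matched the promoter table, with 8 promoters; 2 of the 6 genes held an E-box, 3 an AP-2 match and 0 a grainyhead-like match. Among 13717 promoters of 10694 tested genes, 16.1% held an E-box, 20.2% an AP-2 match and 0.204% a grainyhead-like match. Counted by gene, as for the 6 above, the shares of the 10694 were 18.8%, 23.8% and 0.252%. Among 364 promoters of genes that fell, 17.3% held an E-box, 20.1% an AP-2 match and 0.824% (3 promoters) a grainyhead-like match, and these shares were not tested against those of all genes. A match is a run of letters and not a site shown to be bound.

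**Figure D1:**
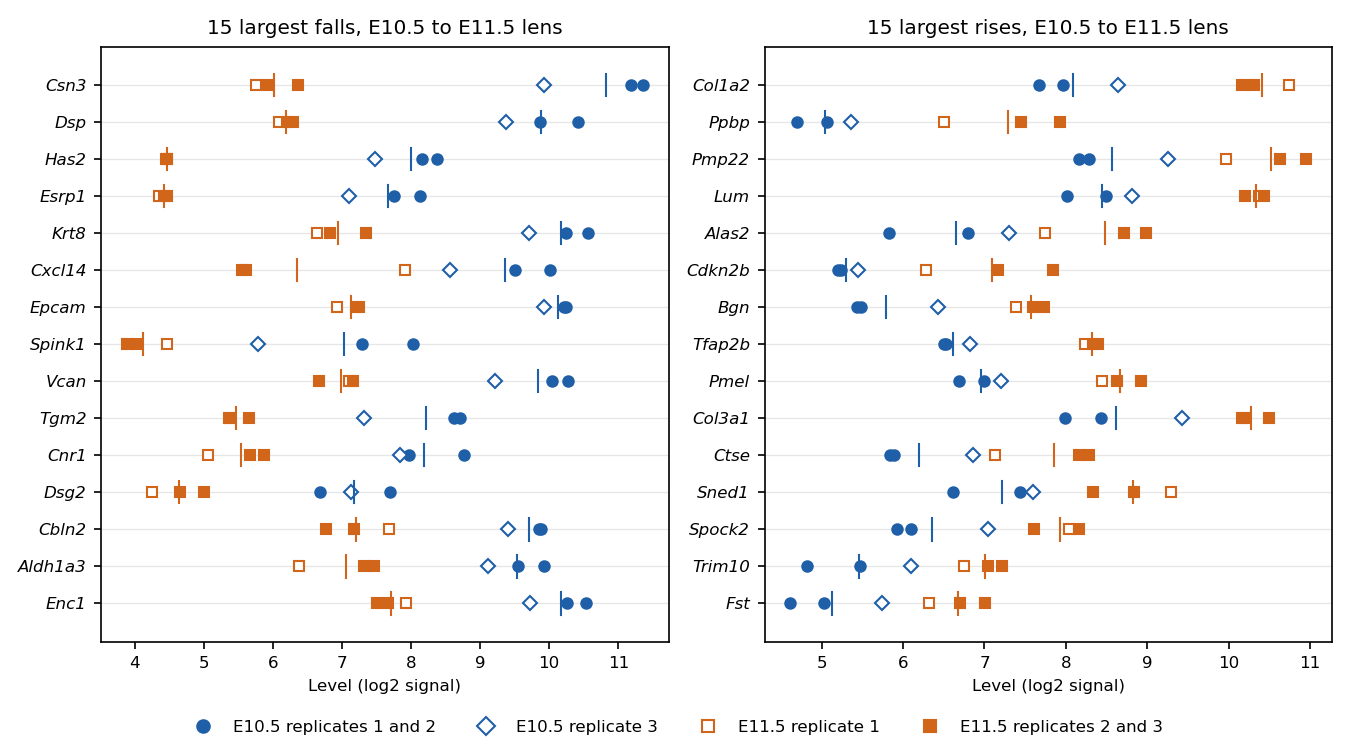
Level (log2 signal, x axis) of the 15 genes with the largest falls (left) and the 15 with the largest rises (right) on each of the 3 E10.5 (blue) and 3 E11.5 (orange) lens arrays; vertical bars are group means. In every gene the stages do not overlap, which the choice of genes required; E10.5 replicate 3 (open diamonds) is the E10.5 array nearest to E11.5 in most of them, as in Epcam, where it stands at 9.92.

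Within the surface ectoderm list, 6 of 19 tested members fell and 1 rose, beside 2.74% and 1.52% of all tested genes. The median difference was -0.28, and the 1 rise was that of Tfap2b (1.71), also a member of the neural crest list. Esrp1, a splicing regulator of epithelial cells, was at 7.75, 8.13 and 7.09 at E10.5 and at 4.35, 4.47 and 4.43 at E11.5. It fell at least 4.58-fold (adjusted p = 8.5e-08), to a level below the median of all values. The transcription factor gene Tfap2c fell at least 2.07-fold (adjusted p = 0.00011), and the protease inhibitor genes Spint2 (-1.26) and Spint1 (-1.13) also fell. Trp63, a regulator of stratified epithelia, is counted among the 6 falls (adjusted p = 0.00022), but at 5.26, 5.05 and 5.26 against 4.11, 3.69 and 3.69 it lay below the median of all values on all 6 arrays, so both of its levels were not told apart from background. Grhl2, a grainyhead-like factor of epithelia, was at 6.22, 6.15 and 6.68 at E10.5 and 6.45, 6.41 and 6.29 at E11.5, and its difference of 0.03 (SE 0.18, adjusted p = 0.95) missed the threshold. All 6 falls held with each array left out in turn.

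Of 8 keratins tested 3 fell and 0 rose, beside 2.74% and 1.52% of all tested genes. Krt18, the partner of Krt8 in simple epithelia, was at 9.93, 10.19 and 9.42 at E10.5 and 8.25, 8.74 and 8.37 at E11.5 (difference -1.39, SE 0.23, adjusted p = 0.0012). Krt7 fell by 1.30 (SE 0.21, adjusted p = 0.00085). The keratins of stratified epithelia Krt5 and Krt14 had differences of -0.17 (SE 0.28, adjusted p = 0.83) and 0.37 (SE 0.22, adjusted p = 0.43), at levels near the median of all values. The summed keratin signal ranged from 1768 to 2965 at E10.5 and from 651.5 to 788.3 at E11.5.

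Genes of cell junctions were among the falls. In the desmosome list 2 of 8 fell and 0 rose. Over all tested genes 2.74% fell and 1.52% rose. Beside Dsp, the desmosomal cadherin Dsg2 was at 6.68, 7.70 and 7.13 at E10.5 and 4.26, 5.0 and 4.66 at E11.5, a fall of at least 3.26-fold (adjusted p = 7.2e-05). The plaque proteins Jup and Pkp2 had differences of 0.12 (SE 0.18, adjusted p = 0.81) and 0.07 (SE 0.30, adjusted p = 0.94). In the tight junction and apical polarity list 6 of 16 fell and 0 rose, with a median of -0.39. The claudins, which seal tight junctions, fell in 4 cases. Cldn7 was at 7.78, 7.39 and 6.46 at E10.5 and 5.51, 4.84 and 4.50 at E11.5 (difference -2.25, SE 0.27, adjusted p = 4.1e-05). Cldn6 fell by 1.86 (SE 0.28), Cldn4 at least 3.02-fold and Cldn1, near background at both stages, at least 1.12-fold. The tricellular junction gene Marveld2 fell at least 1.28-fold (adjusted p = 0.00017) and the adhesion molecule F11r by 1.46 (SE 0.19, adjusted p = 0.00011). The scaffold gene Tjp1 was at 10.91, 10.94 and 11.14 against 10.76, 10.96 and 11.03, with a difference of -0.08 (SE 0.14, adjusted p = 0.83). All 8 falls of these lists held with each array left out in turn.

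In the adherens junction list of cadherins, catenins and nectins, 3 of 14 genes fell and 1 rose. Over all tested genes the shares were 2.74% and 1.52%. Cdh1, E-cadherin, was at 11.13, 11.56 and 11.56 at E10.5 and 10.63, 10.72 and 10.93 at E11.5, so the groups did not overlap. Its difference was -0.66 (SE 0.18, adjusted p = 0.037), and the call was lost without E10.5 replicate 2 (-0.59), E10.5 replicate 3 (-0.59), E11.5 replicate 1 (-0.60) or E11.5 replicate 2 (-0.64). Cdh2, N-cadherin, overlapped between stages (11.64, 11.57 and 12.26 against 12.09, 12.40 and 12.50) and missed the threshold (0.50, SE 0.25, adjusted p = 0.33). Cdh3, P-cadherin, was at 6.87, 7.04 and 6.99 at E10.5 and 6.23, 5.57 and 5.52 at E11.5 and fell by 1.19 (SE 0.21, adjusted p = 0.0021), with every array left out in turn. Among 6 regulators of the change from epithelium to mesenchyme, Snai2 fell by 1.07 (SE 0.21, adjusted p = 0.0045) and 0 rose. The E-box binding genes Zeb1 and Zeb2 had differences of 0.32 (SE 0.15, adjusted p = 0.28) and 0.08 (SE 0.22, adjusted p = 0.9). In this bulk tissue, fewer epithelial cells of a kind and less RNA per cell cannot be told apart.

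Some genes that make or bind hyaluronan, a large sugar polymer of the space between cells, were also among the falls, as was the matrix gene Tnc. This grouping was chosen after the values were seen and does not list all genes of hyaluronan. Has2 (chr15:56665627-56694546), a hyaluronan synthase, was at 8.16, 8.37 and 7.47 at E10.5 and at 4.47, 4.45 and 4.47 at E11.5. It fell at least 5.81-fold (adjusted p = 7.3e-09), to a level below the median of all values on all 3 E11.5 arrays. Vcan (chr13:89655309-89743027), the proteoglycan versican that binds hyaluronan, was at 10.04, 10.28 and 9.21 at E10.5 and 7.11, 6.67 and 7.17 at E11.5 (difference -2.86, SE 0.23, adjusted p = 2e-07), and all 7 further probe sets of Vcan had the same direction, though 5 of them were above the median of all values on no array. Hapln1, a link protein that joins such proteoglycans to hyaluronan, fell at least 1.72-fold (adjusted p = 0.00017). Tnc, the matrix protein tenascin C, was at 9.57, 10.0 and 9.30 at E10.5 and 8.24, 7.20 and 7.43 at E11.5 (difference -2.0, SE 0.26, adjusted p = 0.00011). Has2, Vcan, Hapln1 and Tnc were called in every repeat with an array left out, in both control sets and in the 6 arrays alone. Acan, another proteoglycan that binds hyaluronan, did not fall (0.17, SE 0.21, adjusted p = 0.77), at means near the median of all values.

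The largest fall of all named genes was that of Csn3 (chr5:87925579-87932550), kappa-casein, known as a milk protein. It was at 11.36, 11.19 and 9.92 at E10.5 and 5.76, 6.36 and 5.93 at E11.5, a 27.9-fold fall (difference -4.80, SE 0.29, adjusted p = 7.5e-09). On the whole body arrays of the lens series Csn3 was at 4.75 to 5.53. Cbln2, a secreted organiser of synapses, was at 9.85, 9.88 and 9.40 against 7.68, 6.76 and 7.17 (difference -2.51, SE 0.21). The transglutaminase gene Tgm2 (-2.75, SE 0.31), the cannabinoid receptor gene Cnr1 (-2.66, SE 0.34) and the actin-binding kelch gene Enc1 (-2.47, SE 0.18) also fell with every array left out. The chemokine gene Cxcl14 was at 10.01, 9.50 and 8.57 at E10.5 and 7.91, 5.55 and 5.61 at E11.5, where replicate 1 lay between the E10.5 arrays and the other E11.5 arrays. Cxcl14 fell by 3.0 (SE 0.60, adjusted p = 0.0059) and the trypsin inhibitor gene Spink1 fell at least 2.97-fold (adjusted p = 0.00016). Neither was called in the 6 arrays alone (adjusted p = 0.13 and 0.071), whereas the other 13 of the 15 largest falls were. Of 30 further probe sets of the 15 genes, 29 had the same direction. Only 20 of the 30 lay above the median of all values on at least 3 arrays, and 19 of these had the same direction. The further probe set of Csn3 lay above it on 0 arrays. That of Cnr1 lay above it on all 19 arrays and had a difference of -0.26. The rule, which ranks fitted differences, ended between Enc1 at -2.47 and Mpzl2 at -2.39.

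In the list of retinoic acid, a vitamin A derivative that patterns the eye, 2 of 14 genes fell and 0 rose, while 9 had positive differences and the median was 0.30. With arrays centred on their medians 2 fell and 2 rose. Aldh1a3, which makes retinoic acid, was at 9.55, 9.92 and 9.12 at E10.5 and 6.38, 7.32 and 7.47 at E11.5 and fell by 2.48 (SE 0.26, adjusted p = 1.1e-05). Aldh1a1, an enzyme of the same step and abundant in lens, was at 12.32, 12.55 and 12.56 against 13.08, 13.06 and 13.24, with no overlap and a difference of 0.65 (SE 0.19, adjusted p = 0.058) that missed the threshold. Crabp1, a retinoic acid binding protein, fell by 1.90 (SE 0.38, adjusted p = 0.0056), and by 0.87 and 2.10 within the high and the low control set.

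In the BMP and TGF-beta list 2 of 25 rose and 0 fell, beside 1.52% and 2.74% of all tested genes. Fst, follistatin, which binds activins, was at 4.61, 5.03 and 5.75 against 6.32, 6.70 and 7.01 (1.54, SE 0.27, adjusted p = 0.0019). The ligand gene Tgfb2 was at 8.25, 7.94 and 8.29 at E10.5 and 9.07, 9.52 and 9.59 at E11.5 (1.23, SE 0.15, adjusted p = 7.8e-05). In the Wnt list 3 of 22 rose and 1 fell. Sfrp1, a secreted Wnt antagonist, rose by 1.19 (SE 0.22, adjusted p = 0.003), and Dkk2, another, rose by 1.31 (SE 0.29, adjusted p = 0.014), a call lost without E10.5 replicate 1 (1.08) or 2 (1.18). Of 15 Notch genes 0 were called, while 6 had a negative and 9 a positive difference. In the FGF list Dusp6, a phosphatase induced by FGF signalling, was at 10.76, 10.70 and 10.87 against 9.43, 10.03 and 9.76. Its fall of 1.04 (SE 0.25, adjusted p = 0.023) was the list's only call among 15 genes (1 gene also rose with arrays centred on their medians) and was lost without E10.5 replicate 1 (-1.05), 2 (-1.07) or 3 (-0.99) or E11.5 replicate 1 (-0.89) or 3 (-1.05). A related phosphatase outside the list, Dusp4, fell by 1.24 (SE 0.13, adjusted p = 1.1e-05) and was called in every repeat.

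Transcription factors of the lens moved in both directions. In that list 6 of 19 fell and 1 rose, beside 2.74% and 1.52% of all tested genes, with a median of -0.31. Sox2, which acts with Pax6 in lens induction, was at 10.68, 10.89 and 10.54 at E10.5 and 8.98, 8.71 and 9.17 at E11.5, a 3.37-fold fall (difference -1.75, SE 0.26, adjusted p = 0.00046). The early ectoderm factors Six4 (-1.06, SE 0.20), Sox11 (-0.71, SE 0.13) and Meis1 (-0.71, SE 0.14) also fell with each array left out. Meis2 (-1.47, SE 0.34) and Tfap2a (-0.85, SE 0.17) fell, calls lost without E10.5 replicate 2 (-1.32 and -0.79). Meis2 was at 5.62 on E11.5 replicate 1 and at 7.36 and 7.24 on the other E11.5 arrays. Pax6, the main determinant of the eye, was at 11.92, 12.06 and 11.74 against 11.63, 11.23 and 11.76; the groups overlapped and the difference of -0.36 (SE 0.37, adjusted p = 0.68) missed the threshold. Foxe3, a factor of the lens vesicle and its epithelium, was at 10.28, 9.62 and 10.45 against 11.30, 10.57 and 10.03 (0.52, SE 0.32, adjusted p = 0.45), and had opposite signs in the control sets (1.35 in the high set, -0.15 in the low). Prox1, needed for fibre elongation, was at 9.07, 9.06 and 9.42 against 10.11, 9.94 and 10.24. It rose by 0.91 (SE 0.19, adjusted p = 0.0074), a call lost without E10.5 replicate 2 (0.85). Sox2 is also expressed in the neural retina, whose progenitor markers had 0 of 9 members called. Of these, 8 had positive differences and 1 a negative one, with a median of 0.32. The summed signal of these markers was 14160 to 15850 at E10.5 and 11760 to 14880 at E11.5. The part of retina in the fall of Sox2 was not tested.

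Crystallins and fibre genes depended on E10.5 replicate 3. Crybb1, a beta-crystallin of fibre cells, was at 8.86 and 8.58 on E10.5 replicates 1 and 2, at 13.98 on replicate 3 and at 12.50, 13.68 and 13.25 at E11.5, so replicate 3 lay above every E11.5 array. With all arrays its difference was 2.67 (SE 0.87, adjusted p = 0.1), and without replicate 3 it rose by 4.42 (adjusted p = 5.7e-07). Crygb, a gamma-crystallin, was at 4.03, 3.89 and 13.46 at E10.5, at 4.90, 9.63 and 7.46 at E11.5 and at 13.02, 13.16 and 13.22 at E12.5. In this gene replicate 3 lay above every E11.5 and every E12.5 array. Cryaa, an alpha-crystallin and early lens marker, was at 12.47, 12.55 and 14.15 against 13.91, 14.20 and 14.33 (1.09, SE 0.33, adjusted p = 0.067), and rose by 1.64 (adjusted p = 0.0003) without replicate 3.

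Over the crystallin list 0 of 14 were called with all arrays and the median was 0.94. Without E10.5 replicate 3, 8 rose and 0 fell, beside 2.57% and 3.06% of all tested genes, with a list median of 2.17. Within the high control set 10 rose, beside 2.87% of all genes that rose and 8.19% that fell there (list median 1.31). Within the low set, where replicate 3 is the only E10.5 array, 3 fell, beside 0.533% of all genes that fell and 0.383% that rose (list median -0.97). The summed crystallin signal was 20710 and 19481 on E10.5 replicates 1 and 2, 157216 on replicate 3, and 54585, 98451 and 75888 on the E11.5 arrays. In the fibre membrane and cytoskeleton list 4 of 10 rose and 1 fell, and 8 rose without replicate 3. The shares of all tested genes were 1.52%, 2.74% and 2.57%, in the same order. Bfsp2, the beaded filament protein phakinin, was at 6.35, 6.25 and 6.88 against 7.45, 8.37 and 7.77 and rose by 1.37 (SE 0.23, adjusted p = 0.0013), with each array left out in turn. The connexin gene Gja3 (1.5, SE 0.42, adjusted p = 0.049) and the galectin-related lens gene Grifin (1.36, SE 0.33, adjusted p = 0.025) rose with all arrays, and both calls were lost without E10.5 replicate 1 (1.05 and 1.14), E10.5 replicate 2 (1.25 and 1.07), E11.5 replicate 2 (1.25 and 1.11) or E11.5 replicate 3 (1.40 and 1.34). The lens protease gene Capn3 (1.13, SE 0.29, adjusted p = 0.033) lost its call without E10.5 replicate 1 (0.97) or 2 (1.11) or E11.5 replicate 1 (0.97) or 2 (1.14). Lim2, a fibre membrane protein, was at 7.73, 7.32 and 12.15 against 10.39, 11.99 and 10.84, and had a difference of 2.0 with all arrays (SE 0.76, adjusted p = 0.17) and a rise of 3.54 (adjusted p = 9.1e-07) without replicate 3. Gja1, the connexin of the lens epithelium, fell by 0.77 (SE 0.15, adjusted p = 0.0048).

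**Figure D2:**
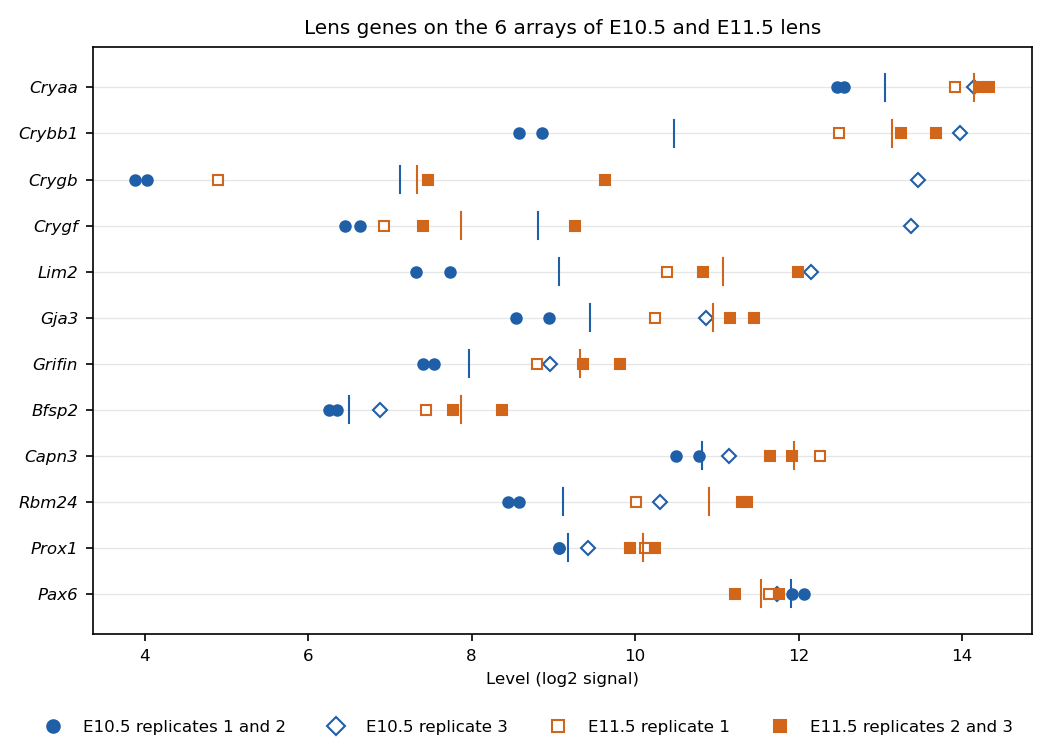
Level (log2 signal, x axis) of 12 crystallin, fibre and lens regulatory genes on each of the 3 E10.5 (blue) and 3 E11.5 (orange) lens arrays; vertical bars are group means. E10.5 replicate 3 (open diamonds) lies at 13.98 in Crybb1 and 13.46 in Crygb, above every E11.5 array, but below every E11.5 array in Bfsp2 and Prox1.

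The same array stood differently in genes that fell, in the epithelial lists as over all tested genes. In the surface ectoderm, keratin, desmosome and tight junction lists 19 genes fell without replicate 3, and it lay above all 3 E11.5 arrays in 17 of them, at a median of 19.2% of the way from the mean of the other E10.5 arrays to the E11.5 mean. Of all 408 genes that fell without replicate 3, it lay on the E10.5 side of all 3 E11.5 arrays in 374 (91.7%), and its median position was 35.1% of the way. Of the 342 that rose without it, it lay on the E10.5 side in 207 (60.5%), with a median of 59.6% of the way. These genes were chosen without that array.

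Rbm24, an RNA-binding protein of the lens, was at 8.45, 8.58 and 10.31 against 10.01, 11.37 and 11.31 and rose by 1.78 (SE 0.42, adjusted p = 0.017), a call lost without E10.5 replicate 1 (1.45) or 2 (1.52) or E11.5 replicate 2 (1.55) or 3 (1.58). It was 1 of 9 RNA-binding genes tested that rose, and all 9 had positive differences. Basement membrane genes of the lens capsule rose in 4 of 17 cases and fell in 0, with a median of 0.25. Over all tested genes 1.52% rose and 2.74% fell. Nid1, nidogen, was at 11.08, 11.08 and 12.18 against 12.36, 12.43 and 12.54 (1.0, SE 0.23, adjusted p = 0.016), and the collagen IV genes Col4a2, Col4a6 and Col4a1 rose by 0.89, 0.83 and 0.82. None of these 4 calls held with every array left out: without E10.5 replicate 1 the differences were 0.82, 0.86, 0.79 and 0.78, and without E10.5 replicate 2 they were 0.81, 0.68, 0.82 and 0.67, with all 4 calls lost in both cases. Some were also lost without E11.5 replicate 1 (Col4a2 at 0.85 and Col4a6 at 0.72), replicate 2 (Col4a2 at 0.87 and Col4a1 at 0.75) or replicate 3 (Nid1 at 0.95, Col4a2 at 0.93 and Col4a1 at 0.79). Itga6, a laminin receptor subunit, was at 8.78, 8.75 and 8.90 against 9.35, 9.79 and 9.77 and rose by 0.82 (SE 0.14, adjusted p = 0.0016), the only call among 20 genes of apical constriction and planar polarity. Shroom3, which drives apical constriction of the lens pit, had a difference of -0.54 (SE 0.17, adjusted p = 0.085).

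Most cell cycle genes had small negative differences. Of 20 cell division genes 4 fell and 0 rose, 19 had negative differences and the median was -0.44. Of 25 DNA replication genes 4 fell and 0 rose, 24 had negative differences and the median was -0.37. With arrays centred on their medians 3 cell division and 1 DNA replication gene fell. The 3 E11.5 arrays lay below all E10.5 arrays in 13 of the 20 and 18 of the 25, beside 10.3% of all tested genes. Mki67, the proliferation marker, was at 11.54, 11.63 and 10.94 against 11.26, 10.18 and 10.58; the groups overlapped and the difference of -0.69 (SE 0.27, adjusted p = 0.19) missed the threshold. Bub1, a spindle checkpoint kinase, fell by 0.66 (SE 0.14, adjusted p = 0.011), a call lost without E10.5 replicate 2 (-0.60), and none of the 8 calls held with every array left out. Cdc6, which loads the replication helicase, fell by 1.11 (SE 0.28, adjusted p = 0.027), a call lost without E10.5 replicate 1 (-1.21) or 2 (-0.96) or E11.5 replicate 1 (-0.76). Among 15 genes of cell cycle exit 2 rose and 0 fell. Cdkn2b, an inhibitor of G1 kinases, was at 5.20, 5.24 and 5.45 against 6.28, 7.84 and 7.16 and rose at least 3.10-fold (adjusted p = 0.00077). Cdkn1c, the inhibitor p57 of differentiating fibres, was at 11.36, 11.34 and 11.61 against 12.06, 12.51 and 12.30 and rose by 0.85 (SE 0.17, adjusted p = 0.007). Both held with each array left out. In the apoptosis list Bmf was called among 15 genes (-0.92, SE 0.24, adjusted p = 0.037), with 6.67 on E11.5 replicate 1 against 7.77 and 7.87 on the others; the call was lost without E10.5 replicate 1 (-0.82) or 2 (-0.89) or E11.5 replicate 1 (-0.53). Of 18 genes of glycolysis and hypoxia 3 fell, and 1 with arrays centred on their medians. Egln3, a prolyl hydroxylase of the oxygen response, fell at least 1.78-fold (adjusted p = 0.0024), a call that held with each array left out. Of 14 genes of cholesterol synthesis 0 were called, although 13 had negative differences.

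**Figure D3:**
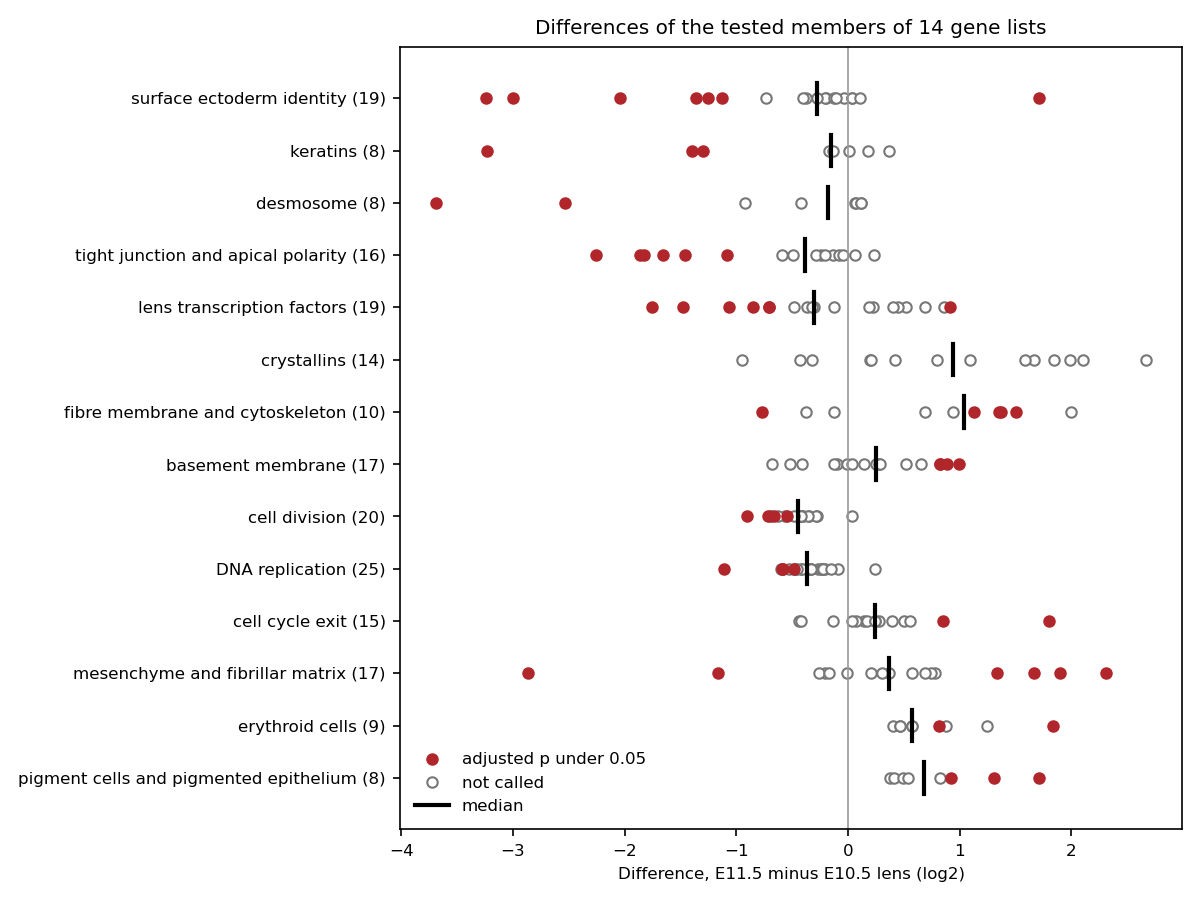
Difference between E11.5 and E10.5 lens (log2, x axis) of each tested member of 14 gene lists, with the number tested in brackets; filled points passed an adjusted p under 0.05, open points did not, and bars are list medians. The surface ectoderm, keratin, desmosome and tight junction lists have tails of falls and medians of -0.28, -0.15, -0.18 and -0.39, and the division and replication lists have 19 of 20 and 24 of 25 differences below 0 and medians of -0.44 and -0.37.

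The 15 largest rises included genes of fibrillar matrix, blood and pigment, beside others. Among the others were Pmp22, a membrane protein of peripheral myelin (1.95, SE 0.32, adjusted p = 0.0012), the protease gene Ctse, cathepsin E (1.66, SE 0.30, adjusted p = 0.0029), Sned1 (1.61, SE 0.26, adjusted p = 0.0011) and the proteoglycan gene Spock2 (1.58, SE 0.26, adjusted p = 0.0013). Col1a2 (chr6:4505618-4541543), a chain of type I collagen, was at 7.97, 7.67 and 8.64 at E10.5 and 10.74, 10.31 and 10.17 at E11.5, a 4.97-fold rise (difference 2.31, SE 0.22, adjusted p = 3.9e-06). Lum, lumican, a proteoglycan of corneal stroma, was at 8.50, 8.02 and 8.81 against 10.38, 10.43 and 10.21 (1.90, SE 0.24, adjusted p = 7.8e-05). Col3a1 (1.66, SE 0.25), Dcn (1.33, SE 0.26) and Bgn (1.79, SE 0.19), which encode a fibrillar collagen and small proteoglycans that bind collagen, rose with each array left out. Beside them, the mesenchyme list of 17 markers had 4 rises, 2 falls and a median of 0.37, and its summed signal overlapped between stages, at 11800 to 12520 at E10.5 and 10440 to 13480 at E11.5. Its falls were Vcan and the fibronectin gene Fn1 (-1.16), the latter a call lost without E10.5 replicate 1 (-1.07) or 2 (-1.15) or E11.5 replicate 2 (-0.87) or 3 (-1.07). Pdgfra, a receptor of mesenchyme, was at 11.63, 11.82 and 11.70 against 11.64, 11.25 and 11.65. The part of admixed mesenchyme in these rises was not tested. Tfap2b, an AP-2 factor of neural crest and periocular tissue, was at 6.50, 6.53 and 6.82 against 8.23, 8.40 and 8.34. This member of the surface ectoderm list rose 3.27-fold (1.71, SE 0.18, adjusted p = 9.4e-06), opposite to its relatives Tfap2a and Tfap2c. Sox10, a defining neural crest marker, had a difference of 0.37 (SE 0.23, adjusted p = 0.43).

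Blood genes made up a further group. Alas2, which starts heme synthesis in red cells, was at 6.80, 5.83 and 7.30 against 7.75, 8.98 and 8.71 (1.84, SE 0.35, adjusted p = 0.0039), and Trim10, a gene of erythroid differentiation, rose by 1.55 (SE 0.23, adjusted p = 0.0005). Ppbp, a chemokine precursor of platelets, was at 5.06, 4.70 and 5.36 against 6.50, 7.93 and 7.45, a rise of at least 3.56-fold (adjusted p = 0.00011). The erythroid list had 2 rises among 9 tested members and all 9 differences were positive, with summed signals of 20170 to 34890 at E10.5 and 39240 to 43060 at E11.5. The embryonic globin gene Hba-x was at 12.83, 11.78 and 13.19 against 13.25, 13.66 and 13.51 (adjusted p = 0.053). The part of blood in the dissected tissue in these rises was not tested.

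Pmel, a structural protein of melanosomes, was at 6.69, 6.99 and 7.21 against 8.45, 8.63 and 8.93, a 3.27-fold rise (1.71, SE 0.17, adjusted p = 5.1e-06). Dct, a melanin-forming enzyme, was at 6.04, 6.42 and 6.20 against 7.67, 7.31 and 7.62 (1.31, SE 0.30, adjusted p = 0.014), a call lost without E10.5 replicate 1 (1.22). The pigment list had 3 rises among 8 tested members, all 8 differences were positive, and summed signals ran from 694.6 to 789.2 at E10.5 and from 1227 to 1534 at E11.5. The defining pigment genes Tyr and Tyrp1 reached at most 4.43 and 4.50 on the 6 arrays, below the median of all values. The part of pigmented epithelium in these rises was not tested. Among macrophage markers Mrc1 rose (1.15, SE 0.23, adjusted p = 0.0054) and Ptprc fell (-1.21, SE 0.32, adjusted p = 0.037), the latter a call lost without E10.5 replicate 1 (-1.37), 2 (-1.15) or 3 (-1.12) or E11.5 replicate 1 (-0.78) or 3 (-1.20). Of 11 endothelial markers 0 were called. All 15 largest rises were called with each array left out, but 4 of them (Col1a2, Lum, Tfap2b and Pmel) in the 6 arrays alone. Their 9 further probe sets all had the same direction, and the rule ended between Fst at 1.54 and Ank at 1.51.

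The tissue label was checked against markers. Summed signal of 10 lens markers was 27540 to 45200 over the 6 arrays and 1438 to 1605 on whole body arrays of the lens series. Markers of neurons summed to 339.3 to 396.9 on the 6 arrays and at least 12180 on body arrays, with 9 of 13 below the median of all values on all 6. Liver and muscle markers summed to at most 418.4 and 571.4, against at least 15790 and 12920 in body. Neural retina progenitor markers, genes of the adjoining optic cup, summed to 11760 to 15850 on the 6 arrays and at most 3072 in body. At both stages this sum lay above every body array, which does not show the same for each gene.

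Finally the stages were compared in the control sets, which share no array. Of the 71 genes that fell within the low set, 63 (88.7%) had a negative difference in the high set and 50 (70.4%) also fell there, beside a negative difference in 56.9% of all genes. Of the 51 that rose within the low set, 47 (92.2%) had a positive difference in the high set and 21 (41.2%) also rose, beside 43.1% of all genes with a positive difference. Of 1091 genes that fell and 382 that rose within the high set, 50 (4.58%) and 21 (5.50%) were called in the low set, with median differences there of -0.14 and 0.16. Epcam fell by 3.30 in the high and 2.70 in the low set, Csn3 by 5.51 and 3.77, and Dsp by 4.04 and 3.13. Lens genes differed between the sets, as Crybb1 was 3.78 higher at E11.5 in the high set and had a difference of -0.51 in the low set.

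A set of 43 genes was called in the same direction with each array left out, in both control sets and in the 6 arrays alone: 35 that fell (0.263% of tested genes) and 8 that rose (0.0601%). This requirement was set after the values were seen. Beside genes already described, the falls included Sostdc1, an antagonist of BMP and Wnt signalling (6.93, 6.94 and 7.38 against 4.94, 5.43 and 5.15), and Pdgfc, a growth factor (8.44, 8.33 and 8.03 against 6.35, 6.45 and 6.30). They also included the potassium channel gene Kcnk1 (-2.29), the cyclic nucleotide channel gene Cngb3 (at least 2.94-fold), the natriuretic peptide receptor gene Npr3 (-1.54) and the membrane glycoprotein gene Prom1 (-1.35). The 8 rises were Col1a2, Lum, Tfap2b and Pmel together with Adamts18, a secreted protease gene (1.33, SE 0.20), Gamt, of creatine synthesis (1.29, SE 0.15), Gask1b (1.23, SE 0.18) and Abca4, a retinoid transporter gene (1.16, SE 0.24). Adamts18 was at 6.72, 6.91 and 7.0 against 8.12, 8.28 and 8.22, with E11.5 arrays tightly together and clear of every E10.5 array. Further probe sets of Adamts18 had the same direction but much smaller differences, of 0.19 and 0.25. They lay above the median of all values on 12 and 9 arrays, so the size of this rise rests on the main probe set.

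**Figure D4:**
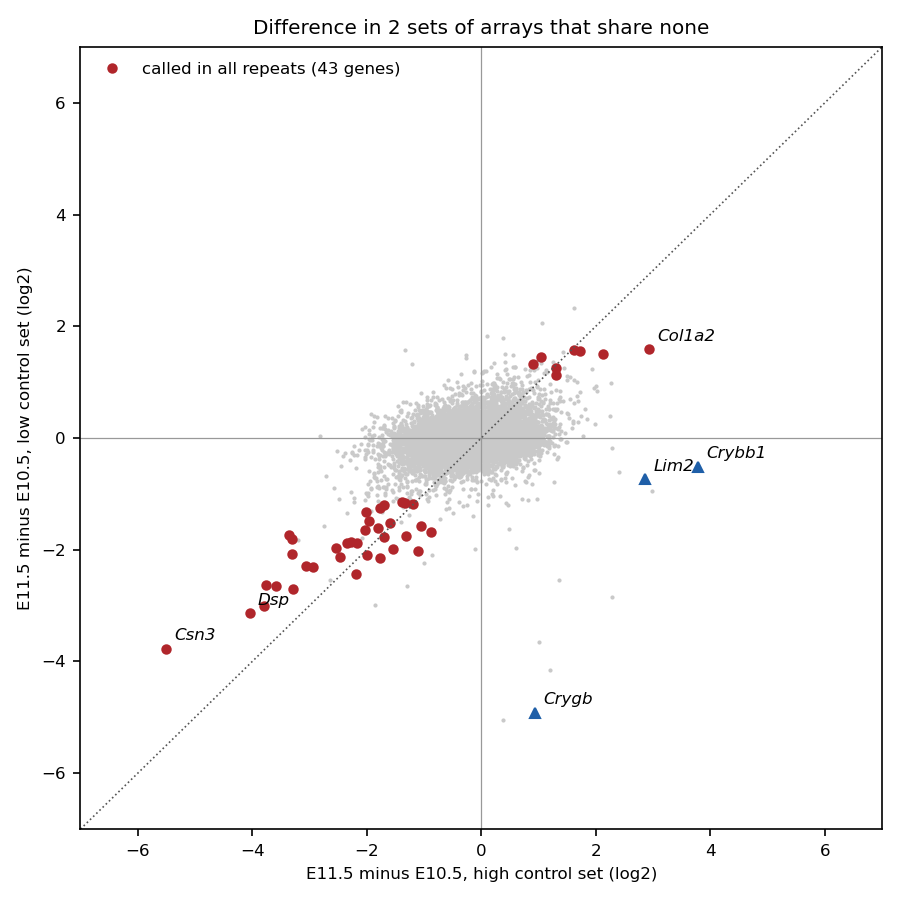
Difference between E11.5 and E10.5 lens (log2) within the low control set (y axis: E10.5 replicate 3 against E11.5 replicates 2 and 3) against that within the high control set (x axis: E10.5 replicates 1 and 2 against E11.5 replicate 1) for 13320 genes; the dotted line marks equal differences. Red points are the 43 genes called in every repeat, with Csn3 at -5.51 and -3.77, and blue triangles are lens genes such as Crygb, at 0.94 and -4.92.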

How the data were processed

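RNA of 19 samples was measured on Affymetrix mouse arrays, 1 per sample. The authors deposited 1 linear intensity per probe set and array, from 5.4 to 25043.5; per the submitters' processing notes they come from RMA, with affy 0.7 also listed. The array annotation build is not given in the sources used here. From these, log2 was taken with no further normalization. A gene is the probe set that names only it and has the highest mean over 19 arrays (18193 genes; 34945 of 45101 probe sets name 1 gene, 932 several, 9160 none and 64 are controls). It was tested if above 44.1, the median of all values, on at least 3 arrays (13320 genes). Symbols were matched by Entrez ID to RefSeq (34741 probe sets).

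The test was limma's (limma 3.58.1, R 4.3.3): 1 mean per group over 19 arrays, two-sided moderated tests and Benjamini-Hochberg adjustment over all tested genes. On simulated data of 13320 genes for this comparison it recovered 76% of changes of 1 and 100% of changes of 2 (log2), with 11 unchanged genes called. The simulated noise was independent for each gene and array. It holds no array that stands apart over many genes, unlike the real arrays, so these values do not give the error rates of the real comparison. Named genes are the 15 largest rises and falls that were called with and without E10.5 replicate 3 and did not overlap between stages, members of gene and marker lists, and Cryaa, Pax6, Foxe3, Prox1, Cdh1 and Epcam; genes outside these are named only where the text says that they were chosen after their values were seen or belong to the 43 called in every repeat. The comparison, its members and all lists were chosen with earlier results of these data known. Alternatives were other array subsets, scalings, filters, probe set rules, a replicate block, control sets (the 13 lens-series arrays divided at the largest gap in bacterial control signal, each set fitted alone with its E12.5 and body arrays), array weights, a variance trend and each array left out.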

Additional observations from a re-analysis of the deposited data

Results flagged for a closer look

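Among 35 genes checked in groups of 4 arrays, 1 value stood apart: the lowest whole body array of the lens series in Epcam, at 8.06 on the log2 scale, while the other 3 body arrays lay between 8.24 and 8.26. Chance alone marks about 1 in 20 such groups.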

How the results depend on the processing

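The counts of calls moved with the arrays used and with array weights more than with scaling, filter, offset or variance trend. The cause was not tested. With all 19 arrays 203 genes rose and 365 fell, 74 and 133 of them at least 2-fold. With fewer samples in the fit, the 6 arrays alone gave 9 and 47 (all at least 2-fold), and the 9 lens arrays 67 and 139 (39 of the rises at least 2-fold). With each array left out in turn, rises ranged from 71 to 392 and falls from 136 to 408, and those of at least 2-fold from 40 to 177 and from 88 to 158; the lowest counts were without E10.5 replicate 2 and the highest count of rises without E11.5 replicate 1. Array weights gave 934 and 875 (192 rises at least 2-fold), with the lowest lens weight, 0.157, on E11.5 replicate 1. The highest weight of all arrays, 3.92, was on E11.5 replicate 3, so the weighted E11.5 mean rested mostly on that array. The control set as a block gave 568 falls. Within the high set 382 rose and 1091 fell (210 and 785 at least 2-fold), and within the low set 51 and 71 (42 and 67). The replicate block gave 313 rises and 554 falls. Deviations from the stage means correlated at 0.58, -0.06 and 0.25 between same-numbered arrays and at -0.51 to 0.44 between others. These values do not settle whether the numbers pair the arrays.

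Directions turned in 5 named lens genes. Foxe3 (-0.15), Crybb1 (-0.51) and Lim2 (-0.74) were lower at E11.5 within the low set. Crygb (0.21 with all arrays, -1.41 to 3.38 with an array left out) was lower with the set as a block (-0.80), with log2(value + 16) (-0.22), within the low set (-4.92) and without E10.5 replicate 1 (-1.34), E10.5 replicate 2 (-1.41) or E11.5 replicate 2 (-0.94). Crygf, at -0.95 with all arrays and -2.14 to 1.33 with an array left out, was higher within the high set (0.39) and without E10.5 replicate 3 (1.33). Of 300 recomputed values of the 15 largest falls 298 kept direction and call and 2 lost the call; of 300 for the 15 largest rises 283 kept both and 17 lost the call. The planned control split over 19 arrays left 1 array in its high set and was not run; the sets used were chosen after seeing the data, as were the gene-by-gene array weights. Signals below the median of all values limit what can be said of low genes.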
